A study of Rattus norvegicus with 8 samples.

Results

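The proteasome and immunoproteasome genes of the rat were followed in adipose-derived stem cells and in the adipocytes grown from them. The members were all genes whose symbol was Psm, a letter from a to g and a number. There were 42 of them among the 14295 genes of the stem cell table, and the same 42 among the 18236 genes of the adipocyte table. Of these, 31 were constitutive subunits of the core and regulatory particles. The immune set of 5 had 4 listed members, Psmb8, Psmb9, Psme1 and Psme2, while Psmb10 was not analysed here. The other 7 were the activator gene Psme4, the inhibitor gene Psmf1 and the assembly chaperone genes Psmd5, Psmg1, Psmg2, Psmg3 and Psmg4.

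All cells were wild-type Wistar rat cells, freed from inguinal fat with collagenase and cultured, and the diets had been given for 6 months. The 8 libraries formed 4 groups of 2. AD_HFS and AD_C were adipocytes differentiated from precursors of rats on the high-fat sucrose (HFS) and the control (C) diet, and ASC_HFS and ASC_C were the precursors of the same diets, the adipose-derived stem cells (ASC). Differentiation took 3 days with 10.0 µg/mL insulin, 5.0 µM dexamethasone and 0.5 mM of the phosphodiesterase inhibitor IBMX, then 7 days with insulin and neither of the others. Whether the 2 libraries of each group stem from different rats or cultures, whether cells were pooled, and the rats' age are not given in the labels, so p-values measure only the spread between these samples, which may be technical.

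The proteasome is the cell's main protease for proteins tagged with ubiquitin. Its barrel-shaped core particle stacks rings of alpha subunits, which gate the entrance, on rings of beta subunits, of which Psmb5, Psmb6 and Psmb7 encode the cutting ones. A regulatory particle of ATPase (Psmc) and non-ATPase (Psmd) subunits binds, unfolds and feeds in the substrate. Interferon-gamma induces Psmb8, Psmb9 and Psmb10, whose products take the places of those of Psmb5, Psmb6 and Psmb7 in newly built cores and favour peptides for MHC class I, and Psme1 and Psme2, which encode the alpha and beta chains of the PA28 activator. Cells of the immune system are rich in the immune form. In mouse brown fat, the transcription factor of Nfe2l1 is known to raise proteasome activity in the cold.

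The start regions of 4 members are shown because they carry the letters of motifs of known regulators of these genes, for an immune pair without a call and a catalytic pair that fell in ASC_HFS. They are RefSeq sequences on the build GRCr8, from 250 bases before to 50 bases after the start of the gene, read in the direction of the gene, and 38 of the 42 members could be matched. The deposited values were made on another build. Capitals mark GAAANNGAAA, the core of the interferon-stimulated response element, in Psmb8 (chr20:4656982-4657281, minus strand, motif on the reverse strand of the gene) and Psme2 (chr15:33052702-33053001, minus strand). In Psmb5 (chr15:32047330-32047629, minus strand) and Psmb6 (chr10:55737638-55737937, plus strand) they mark TGACNNNGC, the core of the antioxidant response element, which is bound by the factors of Nfe2l1 and Nfe2l2.
Psmb8: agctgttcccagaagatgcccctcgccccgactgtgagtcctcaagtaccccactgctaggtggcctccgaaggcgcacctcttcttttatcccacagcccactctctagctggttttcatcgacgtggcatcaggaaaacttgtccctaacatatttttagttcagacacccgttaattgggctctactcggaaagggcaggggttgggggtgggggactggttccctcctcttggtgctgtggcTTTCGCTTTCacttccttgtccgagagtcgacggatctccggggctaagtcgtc
Psme2: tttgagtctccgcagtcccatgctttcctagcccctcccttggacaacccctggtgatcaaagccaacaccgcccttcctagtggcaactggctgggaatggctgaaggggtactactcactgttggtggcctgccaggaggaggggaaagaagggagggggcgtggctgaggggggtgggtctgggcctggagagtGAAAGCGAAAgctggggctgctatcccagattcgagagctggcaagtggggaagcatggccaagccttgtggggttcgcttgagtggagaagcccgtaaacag
Psmb5: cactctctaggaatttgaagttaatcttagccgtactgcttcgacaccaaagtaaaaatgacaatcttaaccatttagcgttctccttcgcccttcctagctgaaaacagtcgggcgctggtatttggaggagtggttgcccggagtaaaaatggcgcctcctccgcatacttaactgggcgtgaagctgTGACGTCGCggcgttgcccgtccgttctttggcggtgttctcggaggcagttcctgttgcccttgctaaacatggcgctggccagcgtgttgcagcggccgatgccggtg
Psmb6: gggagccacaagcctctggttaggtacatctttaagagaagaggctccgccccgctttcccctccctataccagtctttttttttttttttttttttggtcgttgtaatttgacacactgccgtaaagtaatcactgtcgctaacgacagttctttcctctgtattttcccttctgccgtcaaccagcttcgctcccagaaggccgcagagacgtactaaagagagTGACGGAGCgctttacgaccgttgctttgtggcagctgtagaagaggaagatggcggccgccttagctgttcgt

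On either strand, GAAANNGAAA stood in 6 of the 38 member windows (15.8%), those of Psma4, Psmb3, Psmb8, Psmd7, Psme2 and Psmg4, and in 3.92% of all 33469 windows of that length. TGACNNNGC stood in 7 (18.4%), those of Psma3, Psmb2, Psmb5, Psmb6, Psmd1, Psmd3 and Psme4, against 12.1% of all windows. CCAAT, the box of the factor NF-Y, stood in 18 (47.4%), against 37.5%. No occurrences of these motifs overlapped in the 4 windows shown. Such matches describe letters and do not show binding.

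Depth differed widely between libraries. The depth was 76083827 to 119555051 recovered reads in the AD libraries and 992618 to 7290961 in the ASC libraries. The least was in ASC_HFS replicate 2, where 3 reads were worth 10.9 normalized counts. The AD_HFS libraries lay nearest to each other, with a median squared difference between the pair of 3.04 times sampling noise. The multiple was 40.4 in AD_C, 4.11 in ASC_HFS and 9.74 in ASC_C. Sampling noise shrinks with depth, so these multiples do not compare the AD groups with the ASC groups. The listed adipocyte markers took 1.22% to 1.60% of reads in the AD libraries and 0.0862% to 0.312% in the ASC libraries, and mesenchymal progenitor markers were present in all libraries. Values below are normalized counts, the reads of a gene divided by the size factor of its library within its own table, and log2 differences are on the deposited, compressed scale. In bulk RNA, fewer cells of a type and less RNA per cell cannot be told apart.

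The comparison of precursors asked what set the HFS cells apart before differentiation. In ASC_HFS, 5 of the 42 proteasome genes fell and 0 rose. The 5 were the catalytic genes Psmb5 and Psmb6, the alpha ring gene Psma4 and the chaperone genes Psmg1 and Psmg3 (limma-trend, p adjusted by Benjamini-Hochberg across the table, threshold 0.05). Of all genes tested, 9.70% fell and 9.41% rose, so the share of members that fell was close to the background. The difference was negative for 34 of 42 members (81.0%), against 53.7% of all genes, and its median was -0.39 over the members and -0.04 over all genes. All 5 calls needed all 4 libraries in this test, which called 0 of all 14295 genes without ASC_HFS replicate 1, ASC_HFS replicate 2, ASC_C replicate 1 or ASC_C replicate 2. With limma-voom on the recovered reads, by which 10.3% of all genes fell, the same 5 fell, and without each of those libraries in turn 1, 1, 11 and 6 members fell, against 1.96%, 4.16%, 11.6% and 13.9% of all genes, with Psmg3 among them each time. The log2 differences on the deposited scale stayed negative without any of the 4 libraries, at -1.69 to -1.25 for Psmg3, -1.33 to -0.94 for Psmb5, -1.37 to -0.89 for Psmg1, -1.26 to -0.70 for Psmb6 and -0.91 to -0.78 for Psma4.

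**Figure D1:**
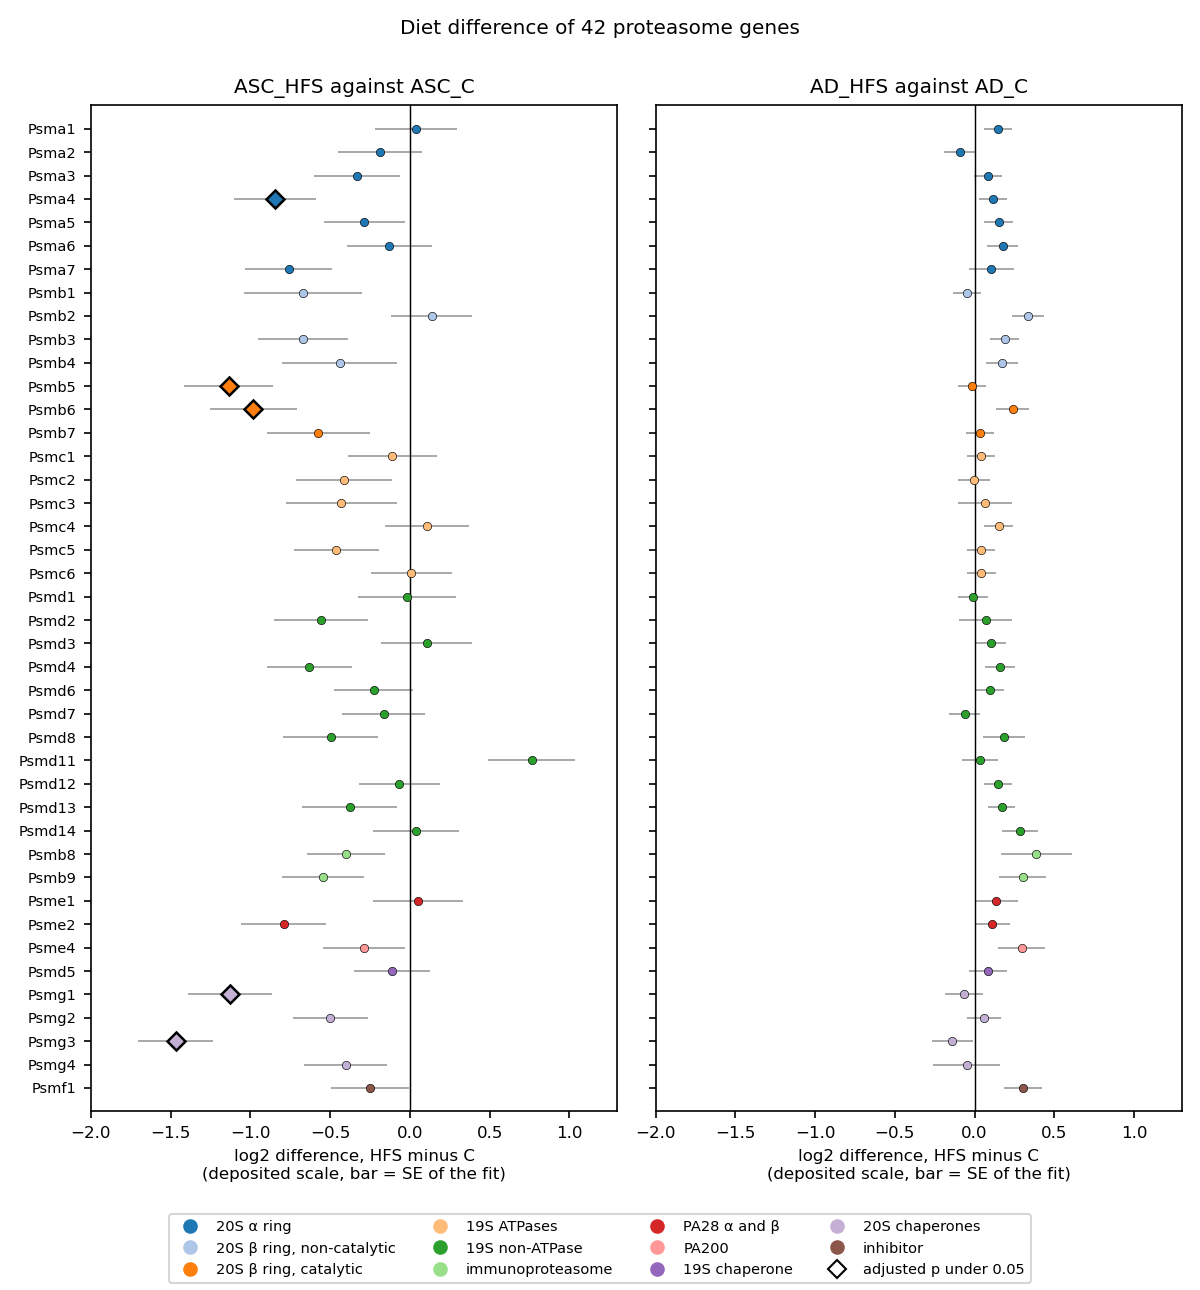
Log2 difference between HFS and C for each of the 42 proteasome genes, in ASC on the left and in AD on the right, with the SE of the fit as bars and the role of the gene as colour. Diamonds mark adjusted p under 0.05. The 5 diamonds lie left of 0 in ASC, at -0.85 to -1.47, while the AD values lie between -0.14 and 0.39 with no diamond.

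The cutting subunits of the constitutive core were the group with the lowest median among the ring and particle subunits, at -0.98. Psmb5 (ENSRNOG00000013386), the chymotrypsin-like subunit, had 460.8 and 337.2 normalized counts in ASC_HFS, against 849.4 and 1057.6 in ASC_C. The groups did not overlap, and the ASC_HFS mean was 399.0 ± 87.4, against 953.5 ± 147.2 in ASC_C (SD, n = 2 each). This was 2.39-fold lower in ASC_HFS (log2 difference -1.14, SE 0.28, limma-trend adjusted p = 0.0127). Psmb6 (ENSRNOG00000019551), the caspase-like subunit, had 237.6 and 141.4 in ASC_HFS, against 373.3 and 486.0 in ASC_C. It was 2.27-fold lower in ASC_HFS, again without overlap (log2 difference -0.98, SE 0.27, limma-trend adjusted p = 0.0226). RefSeq lists pseudogenes of Psmb6, so its counts are uncertain. Psmb7 (ENSRNOG00000011732), the trypsin-like subunit, had 840.0 and 536.7 in ASC_HFS, against 807.7 and 1319.9 in ASC_C, and the groups overlapped (ratio 0.647, limma-trend adjusted p = 0.229).

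The alpha ring opens the core, and 1 of its 7 genes fell. Psma4 (ENSRNOG00000013493) had 356.7 and 319.1 normalized counts in ASC_HFS, against 691.0 and 628.1 in ASC_C. It was 1.95-fold lower, with replicates closer to each other than the groups were (log2 difference -0.85, SE 0.26, limma-trend adjusted p = 0.0347). The other 6 alpha genes did not pass. Nor did any of the 4 non-catalytic beta ring genes, whose ratios of HFS to C ran between 0.595 and 1.12.

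Assembly chaperones hold the first alpha and beta subunits in place while the core is built, as known from yeast and human cells. Psmg3 (ENSRNOG00000001273) showed the largest difference of all members, with 50.5 and 25.4 normalized counts in ASC_HFS, against 197.3 and 192.3 in ASC_C. The mean in ASC_HFS was 37.9 ± 17.8, against 194.8 ± 3.5 in ASC_C (SD, n = 2 each), 5.13-fold lower (log2 difference -1.47, SE 0.24, limma-trend adjusted p = 0.00107). The lower ASC_HFS library held 7 reads of the gene, above the 3-read floor. Psmg1 (ENSRNOG00000001643), which pairs with the product of Psmg2, had 124.7 and 76.2 in ASC_HFS, against 231.6 and 348.8 in ASC_C. It was 2.89-fold lower (log2 difference -1.13, SE 0.26, limma-trend adjusted p = 0.00993). Psmg2 and Psmg4 had ratios of 0.534 and 0.468 and did not pass, and Psmg4 had only 2 reads in the shallowest library, under the floor.

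**Figure D2:**
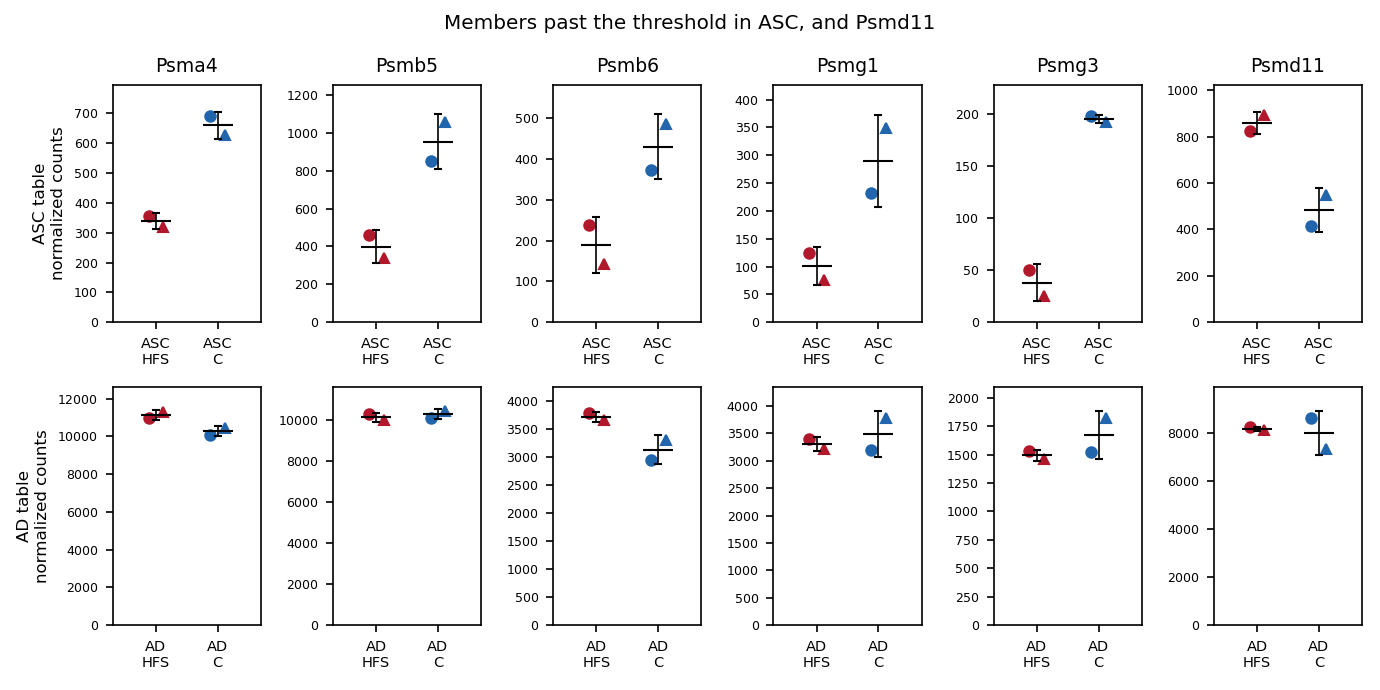
Normalized counts per library of the 5 genes that fell in ASC_HFS and of Psmd11, with the ASC table above and the AD table below, HFS in red and C in blue. Circles are replicate 1, triangles replicate 2, and bars the mean ± SD. In ASC the HFS symbols of the 5 genes all lie below the C symbols, and those of Psmd11 lie above them.

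The regulatory particle gave no call. The 6 ATPase genes had ratios of HFS to C between 0.701 and 1.08, with a median log2 difference of -0.26. The 11 non-ATPase genes had a median of -0.16 and ratios between 0.618 and 1.78. Their upper end was Psmd11 (ENSRNOG00000005538), a scaffold subunit of the lid, with 825.0 and 892.1 normalized counts in ASC_HFS, against 415.0 and 549.2 in ASC_C. It is singled out after its values were seen, as the only member whose ASC_HFS libraries both lay above both ASC_C libraries, where 28.5% of all genes did so. It did not pass limma-trend (log2 difference 0.76, adjusted p = 0.0661) and passed limma-voom, which called 12.1% of all genes higher (adjusted p = 0.0380). Non-overlap the other way, with HFS below C, held for 19 of the 42 members, a larger share than the 32.5% of all genes.

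None of the 4 listed genes of the immune set passed in ASC. Psmb8 (ENSRNOG00000000456), the immune counterpart of Psmb5, had 221.4 and 163.2 normalized counts in ASC_HFS, against 258.4 and 284.2 in ASC_C. The groups did not overlap (ratio 0.709, log2 difference -0.40, SE 0.25, limma-trend adjusted p = 0.275). Psmb9 (ENSRNOG00000000459), the counterpart of Psmb6, had 159.0 and 90.7 in ASC_HFS, against 238.1 and 174.4 in ASC_C. It too was lower in both ASC_HFS libraries without passing (ratio 0.605, limma-trend adjusted p = 0.160). Psme2 (ENSRNOG00000019246) had 236.3 and 137.8 in ASC_HFS, against 396.5 and 327.7 in ASC_C, just outside the threshold (ratio 0.517, limma-trend adjusted p = 0.0531). It passed with a mean value of at least 50, scaling to the upper quartile, quantile normalization, robust moderation, the replicate block or all 8 libraries in 1 fit. It did not pass with pseudocounts of 0.5 or 5, or by limma-voom (adjusted p = 0.0579). Its partner Psme1 (ENSRNOG00000019041) had 1052.0 and 1040.8 in ASC_HFS, against 1082.8 and 937.9 in ASC_C, and the groups overlapped (ratio 1.04, limma-trend adjusted p = 0.925). RefSeq lists pseudogenes of both PA28 genes, so their counts are uncertain. The median log2 difference of the immune set was -0.47, against -0.33 for the 31 constitutive subunits. Without ASC_C replicate 1 the order turned, with -0.41 for the immune set and -0.53 for the constitutive subunits.

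**Figure D3:**
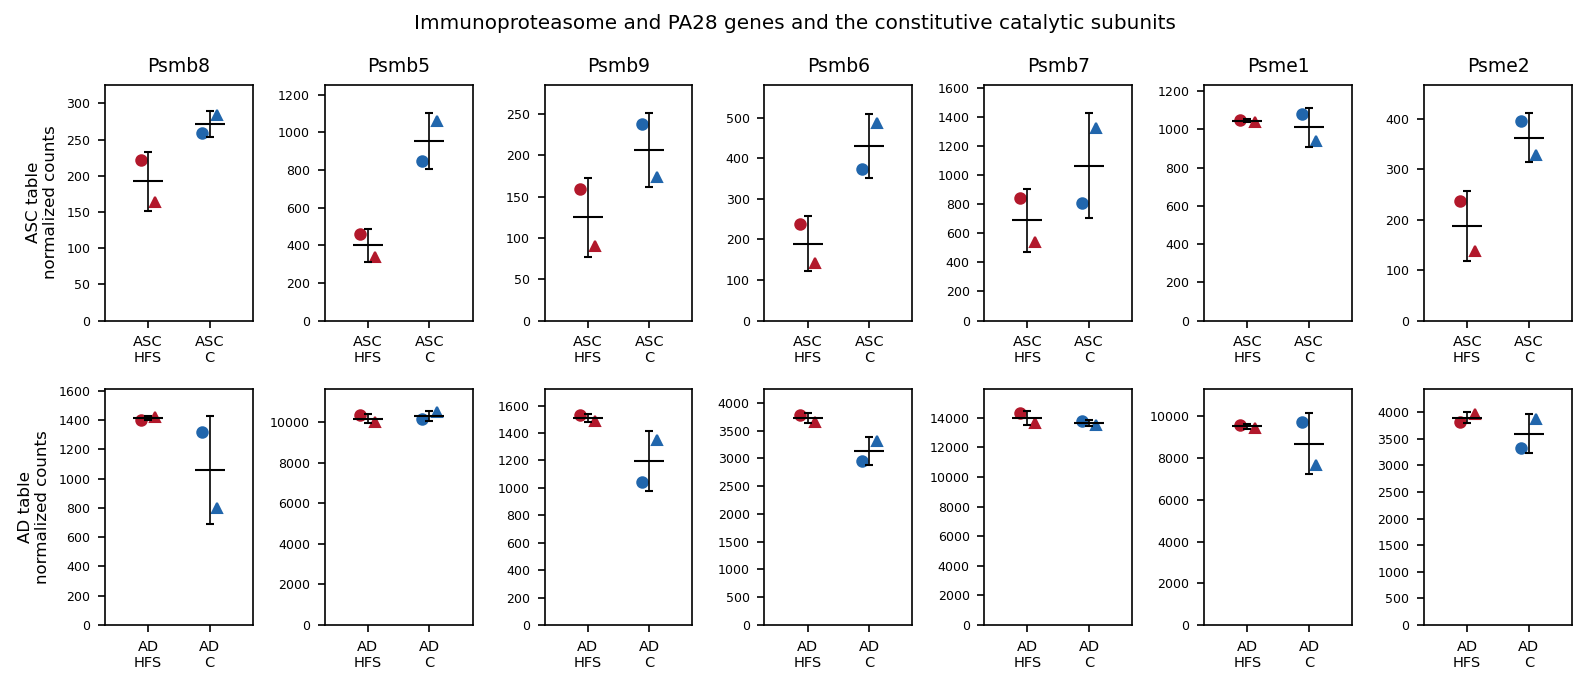
Normalized counts per library of the immune set and of the constitutive cutting subunits, with the ASC table above and the AD table below, HFS in red and C in blue. Circles are replicate 1, triangles replicate 2, and bars the mean ± SD. In ASC, Psmb5 and Psmb6 are lower in HFS by more than Psmb8 and Psmb9, and in AD the C libraries of Psmb8 and Psmb9 lie apart from each other.

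Libraries of a group were not alike across the constitutive set. Its median deviation from the mean of the 4 ASC libraries was -0.04 in ASC_HFS replicate 1 and -0.31 in ASC_HFS replicate 2, against 0.04 in ASC_C replicate 1 and 0.30 in ASC_C replicate 2 (log2, deposited scale). The replicate 1 libraries of both diets therefore lay near each other, and the replicate 2 libraries far apart. ASC_C replicate 2 was above ASC_C replicate 1 for 22 of the 31 genes (71.0%), against 51.3% of all genes. The median difference of the constitutive set was -0.18 without ASC_C replicate 2, against -0.53 without ASC_C replicate 1.

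**Figure D4:**
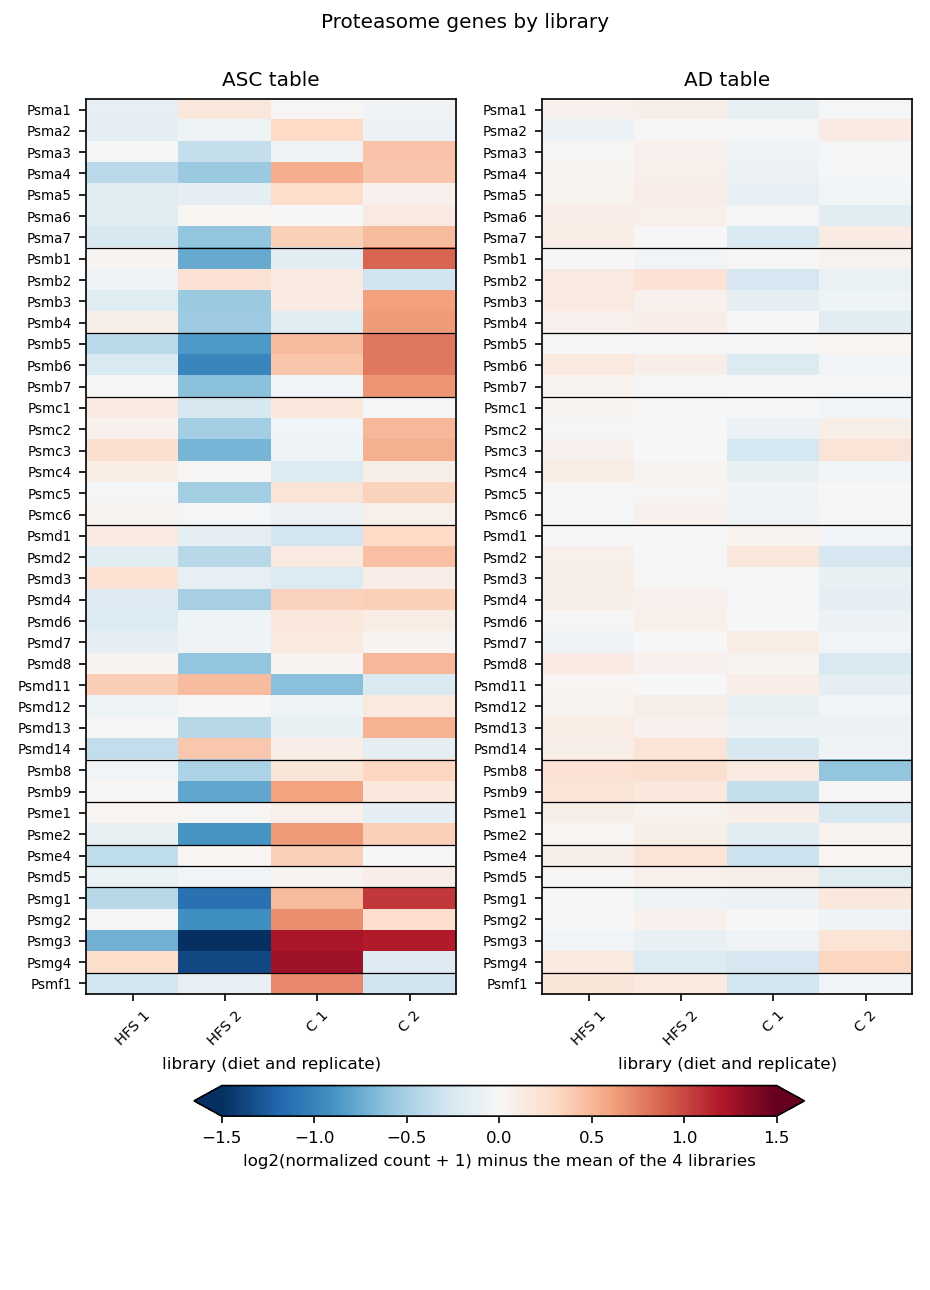
Log2(normalized count + 1) of each proteasome gene minus its mean over the 4 libraries of a table, by library, grouped by role with black lines. Red is higher, blue is lower, and the colour ends at 1.5. In ASC the strongest blue is in HFS 2 and the strongest red in the C libraries, while the AD table is pale apart from Psmb8 in C 2.

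Markers of other cells moved with diet in the same libraries, where 9.41% of all genes rose in ASC_HFS and 9.70% fell. Of 15 macrophage and myeloid markers, 10 rose in ASC_HFS and 0 fell, and their summed reads were 0.347% and 0.364% in ASC_HFS, against 0.124% and 0.133% in ASC_C. Of 7 listed endothelial markers 5 rose, at 0.108% to 0.111% in ASC_HFS and 0.0264% to 0.0569% in ASC_C. Of 4 listed lymphoid markers 0 were called, and Cd79a and Cd3g were at 0 in both ASC_C libraries. Of 8 adipocyte markers 4 rose, at 0.293% and 0.217% in ASC_HFS, against 0.0862% and 0.312% in ASC_C. Of 9 mesenchymal progenitor markers 1 rose and 3 fell, at 3.98% and 4.32% in ASC_HFS, against 2.39% and 2.74% in ASC_C. Lum, Pdgfra and Thy1 fell, to ratios of 0.209, 0.274 and 0.205, and Eng rose 2.21-fold. That sum rested mostly on Col1a1 and Col1a2, which had ratios of 2.52 and 2.35 and did not pass (limma-trend adjusted p = 0.0744 and 0.0770). The part of these cells in the proteasome values was not tested.

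Adipocytes grown from the precursors were compared to ask whether a diet difference was still there after differentiation. In AD_HFS, 0 of 42 proteasome genes rose and 0 fell by limma-trend, where 1.34% of all genes were called, 1.31% as higher and 0.0329% as lower. By limma-voom 0 rose and 0 fell too, where 0.823% of all genes were called, 0.806% as higher and 0.0165% as lower. Only Psmb2 had an unadjusted p under 0.05. The difference was negative for 9 of the 42 members (21.4%), against 52.2% of all genes. Its median was 0.10 over the members and -0.01 over all genes. The AD_HFS libraries both lay above both AD_C libraries for 24 of the 42 members, a larger share than the 24.2% of all genes. They lay below them for 0 members, against 23.5% of all genes.

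The immune set had a median log2 difference of 0.22 in AD, against 0.10 for the constitutive set. Psmb8 had 1401.2 and 1422.0 normalized counts in AD_HFS, against 1320.6 and 799.7 in AD_C, so that the AD_C libraries stood further apart from each other than the nearer of them stood from AD_HFS (ratio 1.33, log2 difference 0.39, SE 0.22, limma-trend adjusted p = 0.528). Psmb9 had 1528.2 and 1487.7 in AD_HFS, against 1039.5 and 1349.3 in AD_C (ratio 1.26, log2 difference 0.30, SE 0.15, limma-trend adjusted p = 0.462). For Psmb8 the lower C library was replicate 2, and for Psmb9 it was replicate 1. Psme1 had 9604 and 9431 in AD_HFS, against 9719 and 7675 in AD_C, and Psme2 had 3823 and 3967 in AD_HFS, against 3338 and 3865 in AD_C. Both PA28 genes overlapped between the diets (ratios 1.09 and 1.08).

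The constitutive counterparts differed little by diet in AD. Psmb5 had 10320 and 10011 normalized counts in AD_HFS, against 10128 and 10468 in AD_C (ratio 0.987). Psmb6 had 3789 and 3661 in AD_HFS, against 2949 and 3314 in AD_C, without overlap (ratio 1.19, limma-trend adjusted p = 0.415). Psmb7 had 14301 and 13623 in AD_HFS, against 13784 and 13477 in AD_C, with overlap (ratio 1.02). The largest differences besides Psmb8 and Psmb9 were those of Psmb2, a non-catalytic beta ring gene, and of Psmf1, the gene of the inhibitor PI31. Psmb2 (ENSRNOG00000011463) had 6237 and 6575 in AD_HFS, against 4775 and 5288 in AD_C (ratio 1.27, log2 difference 0.34, SE 0.10, limma-trend adjusted p = 0.247). Psmf1 (ENSRNOG00000009640) had 2649 and 2583 in AD_HFS, against 1908 and 2260 in AD_C (ratio 1.26, limma-trend adjusted p = 0.369). Besides Psmb5 and Psmb6, the genes that fell in ASC_HFS had ratios of 1.08 for Psma4, 0.949 for Psmg1 and 0.894 for Psmg3. Psma4 was higher in AD_HFS without overlap, and Psmg1 and Psmg3 overlapped.

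The count of 0 in AD changed when a single AD_C library was left out. Without AD_C replicate 1, limma-trend called 22 members and 39.0% of all genes, and without AD_C replicate 2 it called 19 members and 53.9% of all genes. The spread then came from the AD_HFS pair alone. With the AD_HFS pair averaged, or without either of its libraries, 0 members were called. Of 15 macrophage markers, 9 rose in AD_HFS and 0 fell with all libraries kept, where 1.31% of all genes rose and 0.0329% fell. These markers took 0.383% and 0.384% of reads in AD_HFS, against 0.0432% and 0.0818% in AD_C. Of 7 endothelial markers 1 rose, at 0.0418% and 0.0408% in AD_HFS, against 0.0324% and 0.0443% in AD_C. That sum was mostly Egfl7, with means of 36854 in AD_HFS and 35567 in AD_C (ratio 1.04). The marker that rose was Tie1, at a ratio of 4.55. Plvap, Cdh5, Esam and Kdr had ratios of 3.30, 2.91, 2.65 and 1.73 and Emcn of 0.740, and none of these passed. No listed adipocyte or mesenchymal marker was called. The only listed lymphoid marker, Cd2, was at 0 in AD_C replicate 1 and under the 3-read floor in both AD_HFS libraries. The part of these cells in the values of Psmb8 and Psmb9 was not tested.

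The diet difference itself was compared between the stages in 1 fit of all 8 libraries, with 1 spread per gene for both stages. The SE of Psma4 was 0.26 in the ASC fit, 0.088 in the AD fit and 0.23 here. The p-values of this fit may therefore be too small, and each table had its own compressed scale. The diet difference was more positive in AD than in ASC for 4 members and more negative for 0. Of all 14018 shared genes, 7.53% were more positive and 12.5% were called in either direction, so the members' share was close to the background. Psmg3 differed by 1.33 (log2 difference in AD minus that in ASC, SE 0.27, limma-trend adjusted p = 0.0152) and Psmb6 by 1.22 (SE 0.30, adjusted p = 0.0307). Psmb5 differed by 1.12 (SE 0.27, limma-trend adjusted p = 0.0290) and Psma4 by 0.96 (SE 0.23, adjusted p = 0.0265). In each the ASC difference was negative and the AD difference was within 0.24 of 0. In the immune set, Psme2 differed by 0.90, Psmb9 by 0.85 and Psmb8 by 0.79, and none passed (limma-trend adjusted p = 0.0753, 0.106 and 0.121). With the replicate block 2 of the 4 passed, Psmb6 and Psmg3. The count was 0 without AD_HFS replicate 1 or without AD_HFS replicate 2, 2 without AD_C replicate 1 and 5 without AD_C replicate 2. It was 9 without ASC_HFS replicate 1, 1 without ASC_HFS replicate 2, 1 without ASC_C replicate 1 and, with Psmd11 as the only one more negative, 3 without ASC_C replicate 2. The count over all genes ran between 425 and 2382 in these fits, fewest without AD_HFS replicate 1 and most without ASC_HFS replicate 1.

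Each immune cutting subunit takes the place of a constitutive one, so their ratio was taken within each library. This removes scaling between libraries but not counting error. In ASC_HFS replicate 2 the ratios rested on 45 reads of Psmb8, 93 of Psmb5, 25 of Psmb9, 39 of Psmb6 and 38 of Psme2. The counts are not corrected for gene length, so ratios can be compared between libraries and not between gene pairs, and 2 libraries against 2 cannot reach p below 0.333 in an exact permutation test. In ASC, Psmb8/Psmb5 was 0.480 and 0.484 in ASC_HFS, against 0.304 and 0.269 in ASC_C, a 1.68-fold higher mean without overlap. Both genes had lower counts in ASC_HFS, and Psmb5 by more. In AD the same ratio was 0.136 and 0.142 in AD_HFS, against 0.130 and 0.0764 in AD_C, with replicates of AD_C farther apart than the diets. Psmb9/Psmb6 was 0.669 and 0.641 in ASC_HFS, against 0.638 and 0.359 in ASC_C, where the nearest libraries almost met. In AD it was 0.403 and 0.406 in AD_HFS, against 0.353 and 0.407 in AD_C, with overlap. Within PA28, Psme2/Psme1 was 0.225 and 0.132 in ASC_HFS, against 0.366 and 0.349 in ASC_C, while in AD it was 0.398 and 0.421 in AD_HFS, against 0.343 and 0.504 in AD_C.

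**Figure D5:**
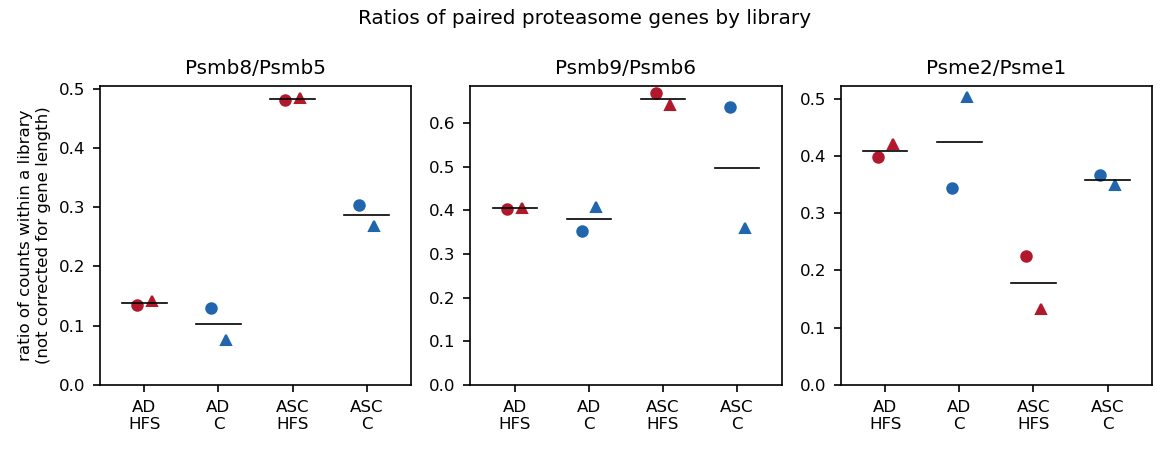
Ratio of counts within each library for Psmb8/Psmb5, Psmb9/Psmb6 and Psme2/Psme1, with circles for replicate 1, triangles for replicate 2, a line for the mean, HFS in red and C in blue. Psmb8/Psmb5 is highest in both ASC_HFS libraries, at 0.480 and 0.484, and lowest in AD_C replicate 2, at 0.0764.

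Between the stages, levels were set side by side as RPM, reads scaled to a common total over the 14018 genes in both tables. The tables were normalized and deposited separately, so these values are a description without a test. The 31 constitutive subunits together took an RPM of 4203 ± 21.9 in AD_HFS and 3993 ± 55.6 in AD_C, against 5179 ± 737 in ASC_HFS and 7651 ± 1089 in ASC_C (SD, n = 2 each). The 4 immune genes took an RPM of 168.2 ± 0.042 in AD_HFS and 151.4 ± 12.5 in AD_C, against 427.9 ± 42.0 in ASC_HFS and 583.3 ± 78.6 in ASC_C. On the control diet, the median ratio of AD to ASC was 0.237 for the immune set, 0.551 for the constitutive set and 0.898 for all genes. On the HFS diet it was 0.395, 0.780 and 1.15. Psmb8 had the lowest ratio of all members on both diets, with an RPM of 14.4 and 14.7 in AD_HFS and 13.7 and 8.33 in AD_C, against 60.7 and 45.4 in ASC_HFS and 83.6 and 87.0 in ASC_C. Psme4, the gene of the large activator PA200, had the highest, at 4.09 on the HFS diet and 2.33 on the control diet.

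Few genes that work with the proteasome were called in ASC by limma-trend. Of 10 listed partners 1 rose and 0 fell in ASC_HFS, where 9.41% of all genes rose. It was Zfand2a, a stress-induced proteasome-associated zinc finger gene, with 4101 and 5131 normalized counts in ASC_HFS, against 1130 and 1705 in ASC_C (3.26-fold, limma-trend adjusted p = 0.00455). The partners Akirin2 and Zfand5, with ratios of 1.97 and 1.98, passed only limma-voom, which called 12.1% of all genes higher (adjusted p = 0.0321 and 0.0288). Of 7 genes that control proteasome transcription 1 rose, the NF-Y subunit gene Nfya (2.22-fold, limma-trend adjusted p = 0.0312). Nfe2l2 had a ratio of 1.78 and passed only limma-voom (adjusted p = 0.0385, limma-trend adjusted p = 0.0721). Nfe2l1, the main inducer of proteasome genes when the protease is blocked, had 987.1 and 935.6 in ASC_HFS, against 781.8 and 919.1 in ASC_C, and did not pass (limma-trend adjusted p = 0.711). None of 7 listed ubiquitin and shuttle genes was called. In AD, 0 genes of these 3 lists were called.

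The interferon pathway, which induces the immune set, gave calls in both directions in ASC, where 9 of 16 listed genes rose and 2 fell. The shares over all genes were 9.41% that rose and 9.70% that fell. The chemokine gene Cxcl10 had 290.0 and 290.1 normalized counts in ASC_HFS, against 23.2 and 57.4 in ASC_C (7.2-fold, limma-trend adjusted p = 0.000288). The signalling inhibitor gene Socs1 rose 5.64-fold and the transcription factor gene Irf8 4.46-fold. Among those that fell was the signal transducer gene Stat2, with 157.1 and 101.5 in ASC_HFS, against 344.6 and 283.8 in ASC_C (ratio 0.412, limma-trend adjusted p = 0.0151). Psmb8, Psmb9 and Psme2 were lower in the same libraries without passing, while Psme1 was not lower (ratio 1.04). Of 15 listed genes of MHC class I antigen processing, the class I transactivator gene Nlrc5 rose 3.14-fold and the chaperone gene Calr fell to a ratio of 0.390. Tap1 and Tap2, which encode the peptide transporter next to Psmb8 and Psmb9 in the class II region, had ratios of 1.45 and 1.52 and did not pass (limma-trend adjusted p = 0.221 and 0.188).

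In AD, 1 of 17 listed interferon genes was called. It was Irf8, with 1035 and 1009 normalized counts in AD_HFS, against 181.1 and 302.0 in AD_C (4.23-fold, limma-trend adjusted p = 0.0470). Irf8 is also a gene of myeloid cells, whose markers rose in AD_HFS and in ASC_HFS. The part of these cells in the Irf8 values was not tested at either stage. None of 16 listed genes of MHC class I antigen processing was called.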

How the data were processed

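Poly(A) RNA, as the labels give the molecule, or RNA after rRNA depletion, as their protocol has it, was sequenced with 50 bp paired-end reads. Per the submitters' processing notes, FastQC, STAR, featureCounts and DESeq2 were used on mRatBN7.2 and rn7. No versions or settings are given in the sources used here. The authors deposited 1 table per stage, and its signal values are variance-stabilized normalized counts taken back from log2, on a scale of their own in each table. Inverting the transformation gave whole reads for 100% of values (tolerance 1e-06), and these gave depths and normalized counts. Intervals and floors (3 reads) cover counting error only.

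Each table was tested two-sided on log2(value + 1) with limma-trend (R 4.3.3 with limma 3.58.1), with Benjamini-Hochberg adjustment over all genes and a threshold of 0.05. A mean value of at least 10 was required, which removed 0 genes. Fits were checked on simulated data. Alternatives were other pseudocounts, filters, scalings, robust moderation, a replicate block, limma-voom on recovered reads, 1 fit of all 8 libraries and each library left out. Other steps ran in Python 3.11.15 with pandas 2.3.3, numpy 2.4.6 and, for figures, matplotlib 3.10.9. Library values are given for the immune set, its counterparts, members past the threshold and the 4 largest differences per table; up to 4 called genes of each further list are named. The members and lists were chosen with earlier results of these data known. Symbols are those of the tables, and RefSeq (GRCr8) gave promoters and pseudogene names. Values of 1 listed gene are not reported here.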

Additional observations from a re-analysis of the deposited data

Results flagged for a closer look

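For 4 members the diet difference in AD was tested against that in ASC and the difference between the stages passed, where 7.53% of all genes passed as more positive and 12.5% in either direction. The log2 difference in AD minus that in ASC was 0.96 for Psma4, 1.22 for Psmb6, 1.12 for Psmb5 and 1.33 for Psmg3 (limma-trend adjusted p = 0.0265, 0.0307, 0.0290 and 0.0152, 1 fit of all 8 libraries). In ASC both HFS libraries lay below both C libraries for each of the 4 genes, where 32.5% of all genes did so. All 4 had been called lower in ASC from the same values, so this is no separate support. The fit took 1 spread per gene over both stages, so its p-values may be too small. With limma-voom on recovered reads, Psma4, Psmb5 and Psmg3 passed and Psmb6 did not (adjusted p = 0.0565).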

How the results depend on the processing

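In ASC, the count of 5 called members became 8 with a crossed replicate block, chosen after seeing the data, and 10 with all 8 libraries in 1 fit, where 25.4% and 26.8% of all genes were called against 19.1%. In both, all 5 were kept and 1 member was higher. The fit of 8 took 1 spread per gene over both stages, so its p-values for ASC may be too small. Leaving out each library gave 0 to 11 members and 0 to 3643 genes over limma-trend and limma-voom, a constitutive median of -0.53 to -0.18 and an immune median of -0.93 to -0.25. In AD, all 42 members stayed uncalled under each alternative that kept 4 libraries, while the 244 genes called became 95 with upper quartile scaling, 661 with the replicate block, 584 with the crossed block, 150 with limma-voom and 423 in 1 fit of 8. With the AD_HFS libraries averaged, also chosen after seeing the data, it was 0. The constitutive median was 0.11 with upper quartile scaling and 0.12 after quantile normalization. Leaving out each AD library gave 0 to 22 members, 0 to 9830 genes, a constitutive median of 0.093 to 0.113 and an immune median of 0.15 to 0.25. For the difference between stages, the 4 called members became 2 with the replicate block, and leaving out each library gave 0 to 9 members and 425 to 2382 genes. The log2 difference of Psmb9/Psmb6 in AD, 0.10, ran between 0.20 and -0.0081 without single AD_C libraries, where its sign turned without AD_C replicate 1. The cause was not tested.

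The labels do not link equal replicate numbers, and deviations of equal numbers correlated at -0.123 in ASC and 0.0014 in AD. As a replicate block they gave 6 members in ASC and 0 in AD, and the crossed block 8 and 0. The smallest ASC library, of 992618 reads, limits members with few reads, such as Psmg4.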
